A study of Arabidopsis thaliana with 15 samples.

Results

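This account follows 10 genes through which Arabidopsis thaliana saves phosphate, in shoots that differ in the genes for ribosomal protein eS6. The members were taken by identifier from the table of 21777 genes, and all 10 were found there. Of these, 5 make sulfolipid or galactolipid (SQD1, SQD2, MGD2, MGD3 and DGD2), 3 break down phospholipids or their products (PLDP2, NPC4 and GDPD1), and 2 are phosphatases (PAP17 and PS2). The genes were chosen by their normalized counts across the 5 groups of these same libraries, together with their known roles. The levels and differences below are therefore a description, and the calls lend no independent support to the choice of the genes.

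RNA was sequenced from the shoots of seedlings of 12 days, grown on 0.5-strength MS medium in long days (16 h light, 8 h dark), in 5 genotypes with 3 libraries each. They comprised wild type (WT), each single mutant (rps6a or rps6b), and a pair of double-mutant lines, one with an eS6A-HA transgene ("rps6a rps6b; eS6A-HA") and one with an eS6A-Δ6SA transgene ("rps6a rps6b; eS6A-Δ6SA"). These transgenic lines are called eS6A-HA and eS6A-Δ6SA here. The sources used here do not give the mutant alleles, the promoter of either transgene, the number of independent lines or the meaning of Δ6SA, and double mutants lacking any transgene were not analysed here. Nothing in the labels says whether the 3 libraries of a group came from separate cultures, so p-values measure only the spread between libraries, which may be technical.

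Plants short of phosphate replace part of their membrane phospholipid with lipids that hold no phosphorus. Galactolipids and the sulfolipid sulfoquinovosyldiacylglycerol take the place of phospholipids, while phospholipases and phosphodiesterases release the phosphate, and acid phosphatases recover it from other esters. Many of these genes are induced by the transcription factor PHR1, which binds a motif called P1BS and is held back by SPX proteins when phosphate is ample. In leaves that are well supplied, most galactolipid is made for the chloroplast by other enzymes, MGD1 and DGD1.

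The P1BS motif was looked for upstream of the members because PHR1 is the best known regulator of this group. Its letters are GNATATNC, which read the same on both strands. Within 500 bases upstream of the annotated gene start, 6 of the 10 members held a match, namely MGD2, SQD2, PLDP2, NPC4, GDPD1 and PS2. Among all nuclear protein-coding genes, 2937 of 27443 such windows held one (10.7%). Within 1000 bases the same 6 members held a match, against 20.25% of all genes. GDPD1 held 4 matches within 500 bases. A match is a run of letters and not a measured binding site, and no match says only that these letters are not in the window. The match nearest to each gene start is printed below with its surroundings. Likeness in the letters other than N was fixed by the search. All sequences are from RefSeq, assembly TAIR10.1, 5′ to 3′ on the strand of the gene, with the motif in capitals.
MGD2, chr5:6896429-6896462, plus strand: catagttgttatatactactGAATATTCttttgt
SQD2, chr5:90430-90477, minus strand: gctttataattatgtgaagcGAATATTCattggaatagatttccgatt
PLDP2, chr3:1634994-1635041, plus strand: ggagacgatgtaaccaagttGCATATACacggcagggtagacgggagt
NPC4, chr3:845288-845335, minus strand: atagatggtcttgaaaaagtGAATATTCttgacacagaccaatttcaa
GDPD1, chr3:350046-350093, minus strand: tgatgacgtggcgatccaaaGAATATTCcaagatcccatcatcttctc
PS2, chr1:27466538-27466585, minus strand: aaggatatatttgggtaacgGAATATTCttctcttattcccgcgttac
In 5 of the 6 genes the nearest match had the letters GAATATTC, and in PLDP2 it had GCATATAC. Matches farther out varied, with GGATATAC in MGD2 and GTATATGC, GAATATTC and GAATATCC in GDPD1. The distance of the nearest match to the gene start was 14 bases in MGD2, 340 in SQD2, 180 in PLDP2, 219 in NPC4, 63 in GDPD1 and 217 in PS2.

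**Figure D1:**
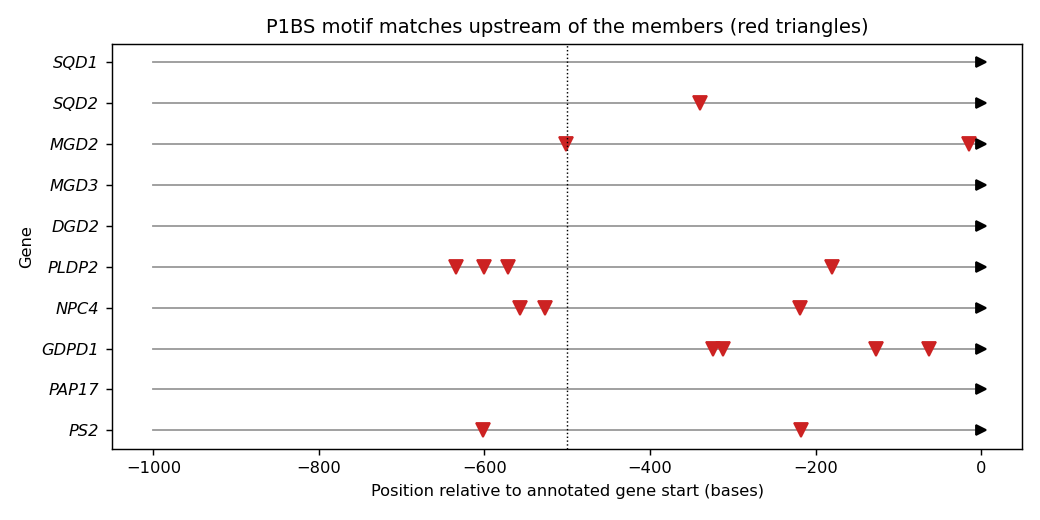
Matches to the P1BS motif (red triangles) in the 1000 bases upstream of each member, plotted by distance in bases from the annotated gene start (black arrow, position 0). The dotted line marks 500 bases. MGD2, SQD2, PLDP2, NPC4, GDPD1 and PS2 hold at least 1 match, and SQD1, MGD3, DGD2 and PAP17 hold none.

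Values are the authors' normalized counts: in each library, all read counts were scaled by the same size factor. Gene reads per library ran from 5726410 to 10009723. The mutated genes were read first. RPS6A stood at 952 ± 120 normalized counts in WT (SD, n = 3), at 69.8 ± 13.7 in rps6a, at 1724 ± 125 in rps6b, at 1827 ± 57.4 in the eS6A-HA line and at 1239 ± 137 in the eS6A-Δ6SA line, where transgene reads can count as RPS6A. RPS6B stood at 932 ± 41.3 in WT, 1222 ± 29.9 in rps6a, 266 ± 12.2 in rps6b, 86.7 ± 12.8 in the eS6A-HA line and 64.3 ± 5.11 in the eS6A-Δ6SA line. RPS6A was thus low in rps6a and above WT in both double-mutant lines with an eS6A transgene, and RPS6B was low in rps6b and in both of those lines. The 5 shoot markers together gave 129752 to 181003 normalized counts per library, and of 7 root markers 5 were in the table, with 4 to 40 reads per library in all.

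Per kilobase of exon, the members in WT ran from 391 normalized counts for SQD1 and 266 for SQD2, through 113 for PAP17, 107 for PS2 and 73.4 for GDPD1, to 27.7 for DGD2, 24.0 for MGD2, 14.4 for PLDP2, 13.6 for MGD3 and 3.67 for NPC4. On that scale the chloroplast enzymes MGD1 (123) and DGD1 (242) lay above the galactolipid members. No member shared a stretch of 75 bases with another place in the genome. Exons of PLDP2, GDPD1 and PAP17 overlap those of a neighbour on the other strand. Whether counting used the strand is not given in the sources used here, so their values may hold reads of that neighbour. The neighbour of PAP17 was the most abundant, at 487 normalized counts in WT, 341 in rps6a, 328 in rps6b, 498 in the eS6A-HA line and 459 in the eS6A-Δ6SA line.

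The sulfolipid genes were the most abundant members, and both had their lowest group mean in rps6b and their highest in eS6A-HA. SQD1 (AT4G33030, chr4:15935373-15937833) makes UDP-sulfoquinovose, the donor of the head group of sulfolipid. Its normalized counts in libraries 1, 2 and 3 were 734, 754 and 753 in WT, 584, 542 and 585 in rps6a, and 532, 538 and 438 in rps6b. The eS6A-HA libraries had 1113, 936 and 1265, and those of eS6A-Δ6SA 778, 410.2 and 492. Every rps6a and rps6b library lay below every WT library, every eS6A-HA library lay above, and eS6A-Δ6SA spread from above WT to far below it.

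SQD2 (AT5G01220, chr5:86543-90117) transfers that head group to diacylglycerol. It had 526, 621 and 665 normalized counts in WT, 422, 438 and 479.7 in rps6a, and 256, 273 and 231 in rps6b. The transgenic lines had 919.5, 734 and 1017 in the eS6A-HA libraries and 624, 347 and 380.3 in those of eS6A-Δ6SA. The rps6b libraries were the lowest of all 15 and averaged 42.0% of the WT mean, while eS6A-HA averaged 147%.

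MGD2 and MGD3 make monogalactosyldiacylglycerol at the outer envelope of the chloroplast, and their levels parted in rps6a. MGD2 (AT5G20410, chr5:6896463-6898783) had 34.4, 49.9 and 53.4 normalized counts in WT, 23.0, 46.5 and 35.1 in rps6a, and 24.3, 29.3 and 22.5 in rps6b. It had 82.3, 54.6 and 77.5 in the eS6A-HA libraries and 47.5, 20.6 and 24.7 in those of eS6A-Δ6SA. For MGD2 the rps6a libraries overlapped WT, rps6b lay below WT, and eS6A-HA lay above it.

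MGD3 (AT2G11810, chr2:4743162-4746813) had 24.9, 15.4 and 38.1 normalized counts in WT, 38.7, 43.2 and 54.3 in rps6a, and 13.3, 9.78 and 8.98 in rps6b. The values were 46.3, 34.0 and 69.7 in the eS6A-HA libraries and 23.2, 6.87 and 14.4 in those of eS6A-Δ6SA. In contrast to MGD2, MGD3 was above WT in all rps6a libraries, with a mean of 174% of WT, and averaged 40.9% of WT in rps6b.

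DGD2 (AT4G00550, chr4:237901-240579), which adds the second galactose to make digalactosyldiacylglycerol, did not share these differences. Over all 15 libraries it ran from 48.1 to 73.9 normalized counts, and its group means stayed between 90.8% and 108% of the WT mean. DGD2 overlapped WT in each of the other 4 groups, and it was the member with its lowest mean in eS6A-HA.

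**Figure D2:**
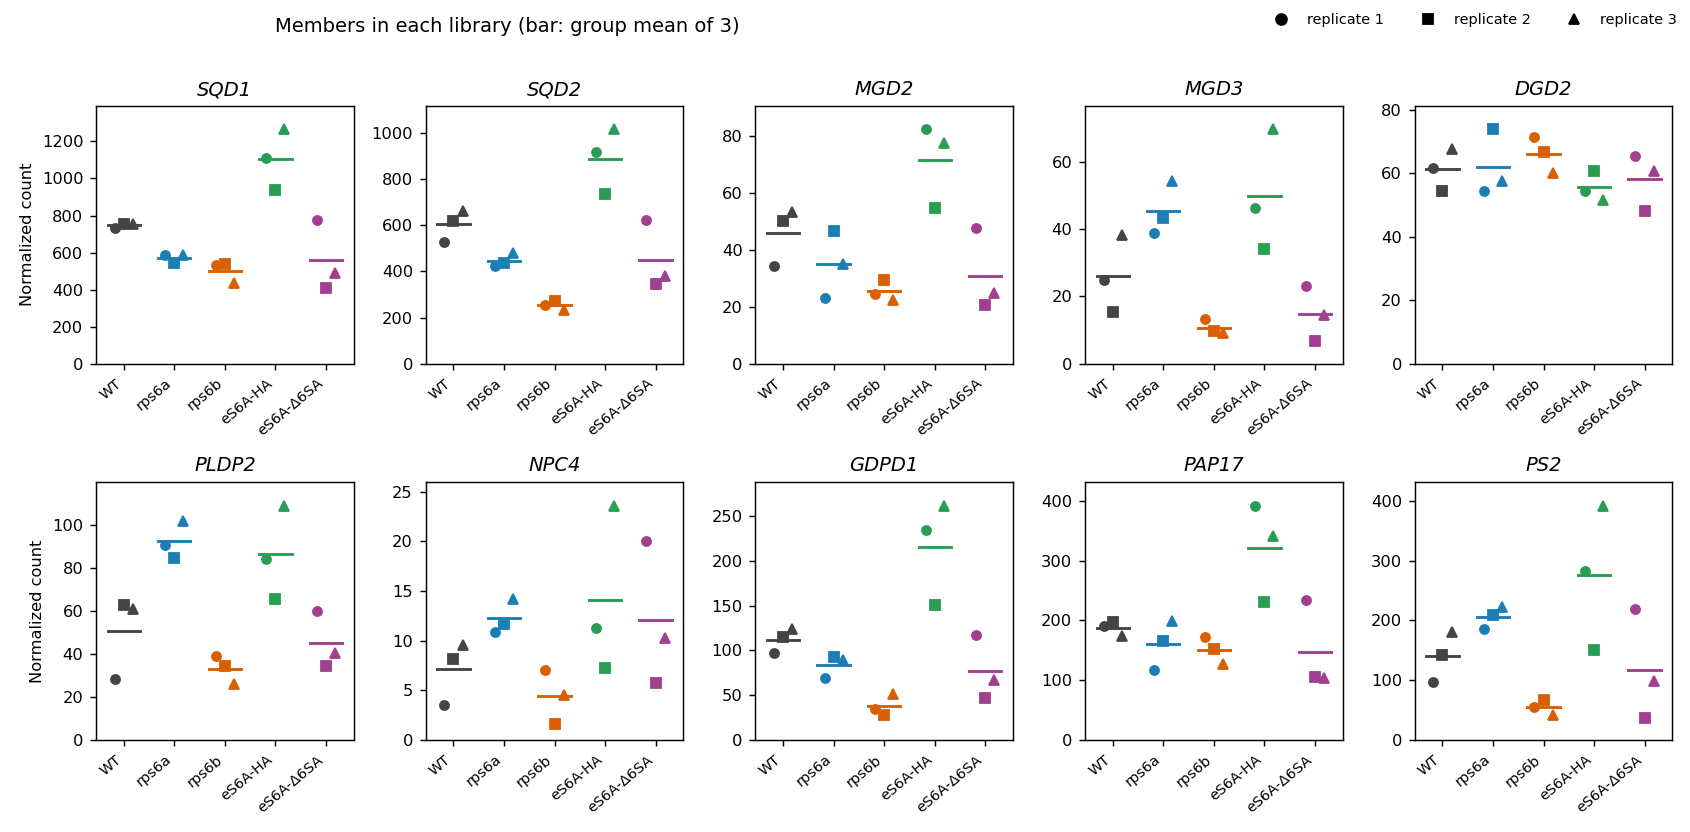
Normalized count (vertical axes, linear, each starting at 0) of the 10 members in each library, with 3 libraries per genotype shown as a circle, a square and a triangle for replicates 1, 2 and 3 and the group mean as a bar. SQD2 runs from 231 in an rps6b library to 1017 in an eS6A-HA library, while DGD2 stays between 48.1 and 73.9. In eS6A-Δ6SA the circle is the highest point for every member.

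Of the genes that break down phospholipid, PLDP2 and NPC4 had higher means in rps6a than in WT, and GDPD1 a lower one. PLDP2 (AT3G05630, chr3:1635194-1640357), a phospholipase D that releases phosphatidic acid, had 28.5, 62.6 and 61.0 normalized counts in WT, 90.7, 84.7 and 102 in rps6a, and 39.2, 34.2 and 26.1 in rps6b. In the transgenic lines it had 84.3, 65.5 and 109 in the eS6A-HA libraries and 60.2, 34.4 and 40.2 in those of eS6A-Δ6SA. PLDP2 lay above WT in every rps6a and eS6A-HA library, and WT library 1 stood well below the other two of its group.

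NPC4 (AT3G03530, chr3:842499-845096), a phospholipase C, was the scarcest member, with 2 to 21 reads per library, and its mean over the libraries was under the filter of 10 normalized counts, so it was not tested. Its normalized counts were 3.56, 8.17 and 9.54 in WT, 10.9, 11.6 and 14.2 in rps6a, and 7.06, 1.63 and 4.49 in rps6b. They were 11.3, 7.28 and 23.6 in the eS6A-HA libraries and 20.1, 5.73 and 10.3 in those of eS6A-Δ6SA. Although the 3 rps6a libraries lay above WT, a fit without the filter called NPC4 in none of the 6 comparisons, with limma adjusted p from 0.102 to 0.886. Its coefficient of variation was 44.2% to 61.8% in the groups other than rps6a.

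GDPD1 (AT3G02040, chr3:348167-350010) splits glycerophosphodiesters, the products left once both fatty acids are removed, into glycerol 3-phosphate and an alcohol. It had 97.2, 114 and 124 normalized counts in WT, 68.9, 92.2 and 89.4 in rps6a, and 34.5, 27.7 and 51.2 in rps6b. Values in the transgenic lines were 235, 150.5 and 262 in the eS6A-HA libraries and 117, 47.0 and 67.0 in those of eS6A-Δ6SA. The rps6b mean was 33.8% of WT, the lowest share of any member in that mutant, and the eS6A-HA mean was 193% of WT.

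The phosphatases had wide spreads in the transgenic lines. PAP17 (AT3G17790, chr3:6089381-6091231), a purple acid phosphatase, had 189.7, 197 and 174 normalized counts in WT, 116, 165 and 199 in rps6a, and 172, 152 and 127 in rps6b. It had 392, 231 and 342 in the eS6A-HA libraries and 233, 105 and 104 in those of eS6A-Δ6SA. Its eS6A-HA libraries lay above WT and its rps6b libraries just below, whereas rps6a and eS6A-Δ6SA overlapped WT.

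PS2 (AT1G73010, chr1:27464528-27466348), a soluble phosphatase with pyrophosphatase activity that is known for its induction by phosphate starvation, had 97.2, 142 and 181 normalized counts in WT, 186, 208 and 222 in rps6a, and 55.7, 66.0 and 42.2 in rps6b. It had 283, 150.5 and 392 in the eS6A-HA libraries and 218, 36.7 and 97.9 in those of eS6A-Δ6SA. PS2 was above WT in each rps6a library and below WT in each rps6b library, and the eS6A-Δ6SA libraries differed among themselves more than any other group, with a coefficient of variation of 78.6%.

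Across the 5 genotypes, most members shared the group with the highest mean and the group with the lowest. The highest mean was in eS6A-HA for 8 of 10 members (PLDP2 was highest in rps6a and DGD2 in rps6b), and the lowest was in rps6b for 8 of 10 (DGD2 was lowest in eS6A-HA and PAP17 in eS6A-Δ6SA). The same counts were not made over all genes, and the members were chosen from these libraries. In rps6a the members divided. SQD1, SQD2, MGD2, GDPD1 and PAP17 had means of 74.0% to 85.6% of WT, and MGD3, PLDP2, NPC4 and PS2 had means of 147% to 182% of WT. None of the first 5 passed the test below. With spike-in scaling, which moved the median of all genes up by 0.35, the log2 differences of SQD1, SQD2, MGD2, GDPD1 and PAP17 were -0.029, -0.070, -0.066, -0.065 and 0.10.

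In rps6a against WT, PLDP2 was the member that passed the test. Differences were tested with limma on log2(normalized count + 1), a scale that understates the change of low genes, over all 16335 genes with a mean of at least 10, and a gene was called at a Benjamini-Hochberg adjusted p under 0.05. PLDP2 rose, with a log2 difference of 0.93 (SE 0.26, limma adjusted p 0.0148). This was 1 of 9 members tested, where 10.4% of all genes tested were called higher and 21.2% in either direction. MGD3 was higher by 0.85 (SE 0.35, limma adjusted p 0.0881), and SQD1 and SQD2 had log2 differences of -0.39 and -0.43 (limma adjusted p 0.177 and 0.138). Of the members tested, 3 lay above WT in all libraries and 3 below, against 16.9% and 18.3% of all genes. Without WT replicate 1 the PLDP2 difference was 0.57 (limma adjusted p 0.0613), and without rps6a replicate 3 it was 0.86 (limma adjusted p 0.0544). A spread estimated from the 2 groups alone gave 6 calls, adding MGD3 and PS2 as higher and SQD1, SQD2 and GDPD1 as lower.

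The root marker sum, like the means of MGD3, PLDP2, NPC4 and PS2, was higher in rps6a than in WT. The 5 root markers in the table (COBL9, CASP1, RBOHC, PRP3 and LRX1) summed to 20.6 to 33.4 normalized counts in the rps6a libraries, 4.54 to 14.3 in WT, 8.63 to 16.2 in rps6b, 4.49 to 5.14 in the eS6A-HA line and 5.73 to 11.6 in the eS6A-Δ6SA line. All 5 had at least 1 read in each rps6a library, while in WT replicate 2 only RBOHC, a root hair oxidase, was above 0. In eS6A-HA, where MGD3, PLDP2, NPC4 and PS2 were also high in mean, the root sum was the lowest of the groups. In rps6b, where those members had their lowest means, the root sums overlapped WT. All 5 root markers were under the filter. In a fit without it, PRP3 was called in rps6a against WT (limma adjusted p 0.0387), and the others were not (0.0690 to 0.213). The part of root RNA in the rps6a values was not tested. Of the 5 shoot markers, 3 were called lower in rps6a against WT and 2 were not called, where 21.2% of all genes were called in either direction. Their median log2 difference was -0.23, and LHCB2.1 had one of -0.70 (limma adjusted p 4.95e-08). The shoot marker sums overlapped, at 129752 to 159872 normalized counts in rps6a and 147844 to 181003 in WT. In bulk shoots, fewer cells of a type and less RNA per cell cannot be told apart.

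**Figure D3:**
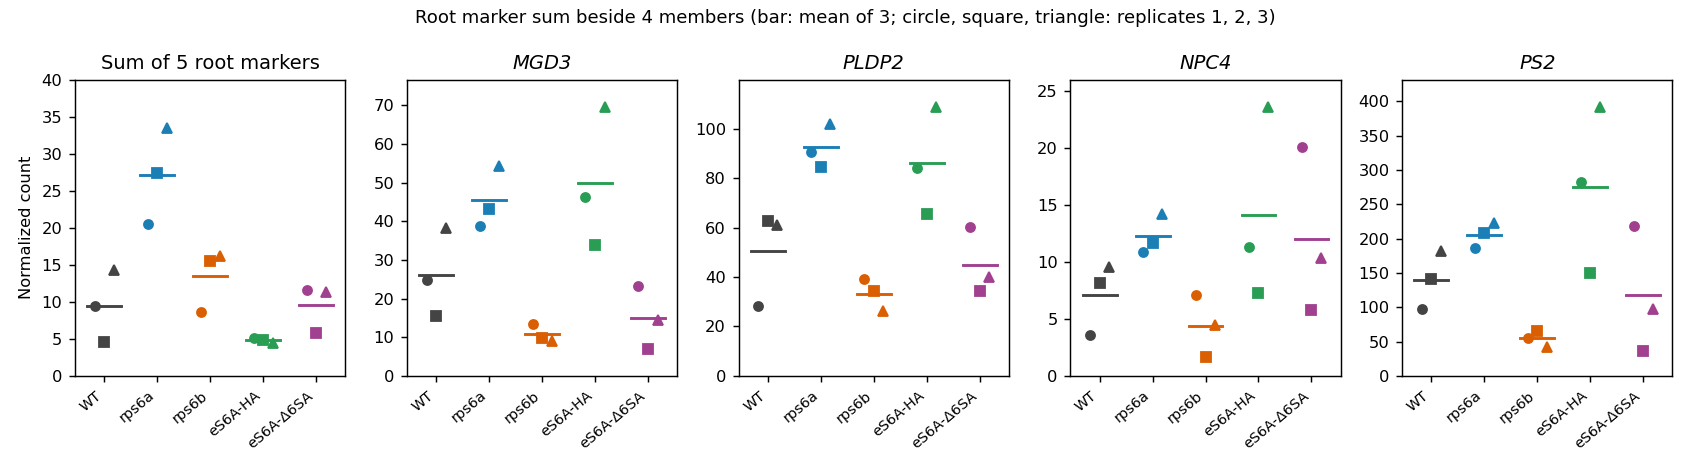
Sum of 5 root marker genes beside MGD3, PLDP2, NPC4 and PS2, as normalized counts (vertical axes, linear, from 0) in each of the 15 libraries; bars are group means of 3, and circle, square and triangle are replicates 1, 2 and 3. The rps6a libraries hold the highest root sums (20.6 to 33.4), and the eS6A-HA libraries the lowest group (4.49 to 5.14). The 4 members have means above WT in both rps6a and eS6A-HA. The part of root RNA in these values was not tested.

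In rps6b against WT, 5 members fell: both sulfolipid genes, both MGD genes and GDPD1. The log2 difference was -1.58 for GDPD1 (SE 0.32, limma adjusted p 0.00313) and -1.25 for SQD2 (SE 0.19, limma adjusted p 3.60e-04). It was -1.14 for MGD3 (SE 0.35), -0.81 for MGD2 (SE 0.27) and -0.58 for SQD1 (SE 0.19), with limma adjusted p of 0.0183, 0.0274 and 0.0438. These are 5 of 9 members tested, where 11.7% of all genes were called lower and 23.3% in either direction. PS2 had a log2 difference of -1.32 (SE 0.56, limma adjusted p 0.128), and PLDP2 one of -0.53 (limma adjusted p 0.162). The wide error of PS2 came from the fit of all 15 libraries and was the same in every comparison. With the spread of WT and rps6b alone, PS2 passed as lower (limma adjusted p 2.96e-04). The rps6b libraries lay below all WT libraries for 7 members, against 18.5% of all genes. The calls of GDPD1 and SQD2 were kept when any 1 library was left out. SQD1 was lost without any 1 of the 6 libraries (limma adjusted p 0.0692 to 0.135), MGD2 without WT 2, WT 3, rps6b 1 or rps6b 3 (0.0785 to 0.111), and MGD3 without WT 3, rps6b 2 or rps6b 3 (0.0688 to 0.106).

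Set directly against rps6b, rps6a had higher MGD3, PLDP2 and SQD2. The log2 difference was 1.99 for MGD3 (SE 0.35, limma adjusted p 0.00114), 1.47 for PLDP2 (SE 0.26, limma adjusted p 0.00260) and 0.82 for SQD2 (SE 0.19, limma adjusted p 0.0380). These 3 of 9 members stand beside 1.3% of all genes called higher and 2.92% called in either direction. PS2 was higher by 1.91 (SE 0.56, limma adjusted p 0.121) and GDPD1 by 1.16 (SE 0.32, limma adjusted p 0.0840). For 6 members all rps6a libraries lay above all rps6b libraries, against 10.3% of all genes. MGD3 and PLDP2 kept their calls without any 1 library, the SQD2 call was lost without any 1 of the 6 (limma adjusted p 0.0849 to 0.133), and DESeq2 called 5 members, adding GDPD1 and PS2.

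In eS6A-HA against WT, 8 of the 9 tested members had higher means and none passed the test with limma, where 0.796% of all genes tested were called. edgeR and DESeq2 on the recovered reads also called 0. At an unadjusted p under 0.05, 7 of the 9 were higher, beside 997 of all 16335 genes tested. The log2 differences were 0.55 for SQD1 (SE 0.19), 0.55 for SQD2 (SE 0.19), 0.63 for MGD2 (SE 0.27), 0.94 for MGD3 (SE 0.35), 0.81 for PLDP2 (SE 0.26), 0.91 for GDPD1 (SE 0.32) and 0.74 for PAP17 (SE 0.32), with limma adjusted p from 0.214 to 0.418. The eS6A-HA libraries lay above all WT libraries for 6 members, against 8.63% of all genes. With the spread estimated from these 2 groups alone, SQD1, SQD2, GDPD1 and PAP17 passed as higher (limma adjusted p 8.27e-04, 0.0119, 0.00991 and 0.0321).

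In eS6A-Δ6SA against WT, all 9 tested members had negative log2 differences and none passed the test with limma, where 2.57% of all genes were called. edgeR and DESeq2 called 0 members as well. At an unadjusted p under 0.05, where 1134 of all 16335 genes were lower, the lower members were MGD2, MGD3, SQD1 and SQD2. Their log2 differences were -0.62 (SE 0.27), -0.83 (SE 0.35), -0.47 (SE 0.19) and -0.47 (SE 0.19). The libraries of the 2 groups overlapped for every tested member, where 8.2% of all genes lay wholly above and 8.5% wholly below. The calls in this comparison depended on library 1 of eS6A-Δ6SA. That library was the highest of its group for 10 of 10 members, so leaving it out lowers the group mean by construction. Without it, MGD2 (-0.97), MGD3 (-1.21), SQD1 (-0.73), SQD2 (-0.72) and GDPD1 (-0.98) were called lower, with limma adjusted p of 0.0329, 0.0495, 3.66e-05, 1.41e-04 and 0.0377.

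That library stood apart for these genes and for some genes outside the members, and not for genes in general. Replicate 1 of eS6A-Δ6SA was the highest of its group for 10 of 10 members, and for 34.9% of all genes tested. Replicate 2 of that line was the lowest for 9 of 10 members, and for 34.4% of all genes. Outside the members, SPX1 had 211, 69.9 and 107 normalized counts in eS6A-Δ6SA replicates 1, 2 and 3, and PAP12 had 174, 85.9 and 98.9. PHR1 went the other way, with 235, 265 and 284. The median coefficient of variation of the members was 46.9% in eS6A-Δ6SA, 25.5% in eS6A-HA, 17.5% in rps6b, 17.1% in WT and 14.7% in rps6a. In eS6A-HA, replicate 2 was the lowest for 9 of 10 members, and for 33.7% of all genes. Replicate 1 was the lowest for 7 members in WT and for 8 in rps6a, and replicate 3 for 8 in rps6b. These libraries were the lowest of their groups for 36.5%, 36.9% and 33.3% of all genes, in that order.

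Between the transgenic lines, 5 members were lower in the eS6A-Δ6SA libraries. They were MGD3 (log2 difference -1.77, SE 0.35), GDPD1 (-1.53, SE 0.32), MGD2 (-1.25, SE 0.27), SQD1 (-1.02, SE 0.19) and SQD2 (-1.02, SE 0.19), with limma adjusted p of 0.00430, 0.0232, 0.00755, 0.0117 and 0.0117. These 5 of 9 stand beside 1.4% of all genes called lower and 2.63% in either direction. PLDP2 (-0.94, SE 0.26), PAP17 (-1.19, SE 0.32) and PS2 (-1.46, SE 0.56) had limma adjusted p of 0.0665, 0.0926 and 0.239, and DGD2 differed by 0.054 (SE 0.17). edgeR called 6 members, adding PLDP2 (adjusted p 0.0312), and DESeq2 called 7, adding PLDP2 (0.0147) and PAP17 (0.0381). For 6 members every eS6A-Δ6SA library lay below every eS6A-HA library, against 10.8% of all genes. Without eS6A-Δ6SA replicate 1, the highest of its group for every member, PLDP2 and PAP17 were called too (limma adjusted p 0.0143 and 5.01e-04). Without eS6A-Δ6SA replicate 3, MGD3 alone was called (limma adjusted p 0.0554 to 0.0982 for the other 4). MGD2 and GDPD1 also lost their call without eS6A-HA 1 or eS6A-HA 3 and MGD2 without eS6A-Δ6SA 2 (0.0519 to 0.0805), and with the spread of these 2 groups alone SQD1, SQD2 and GDPD1 had limma adjusted p of 0.214, 0.203 and 0.203.

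**Figure D4:**
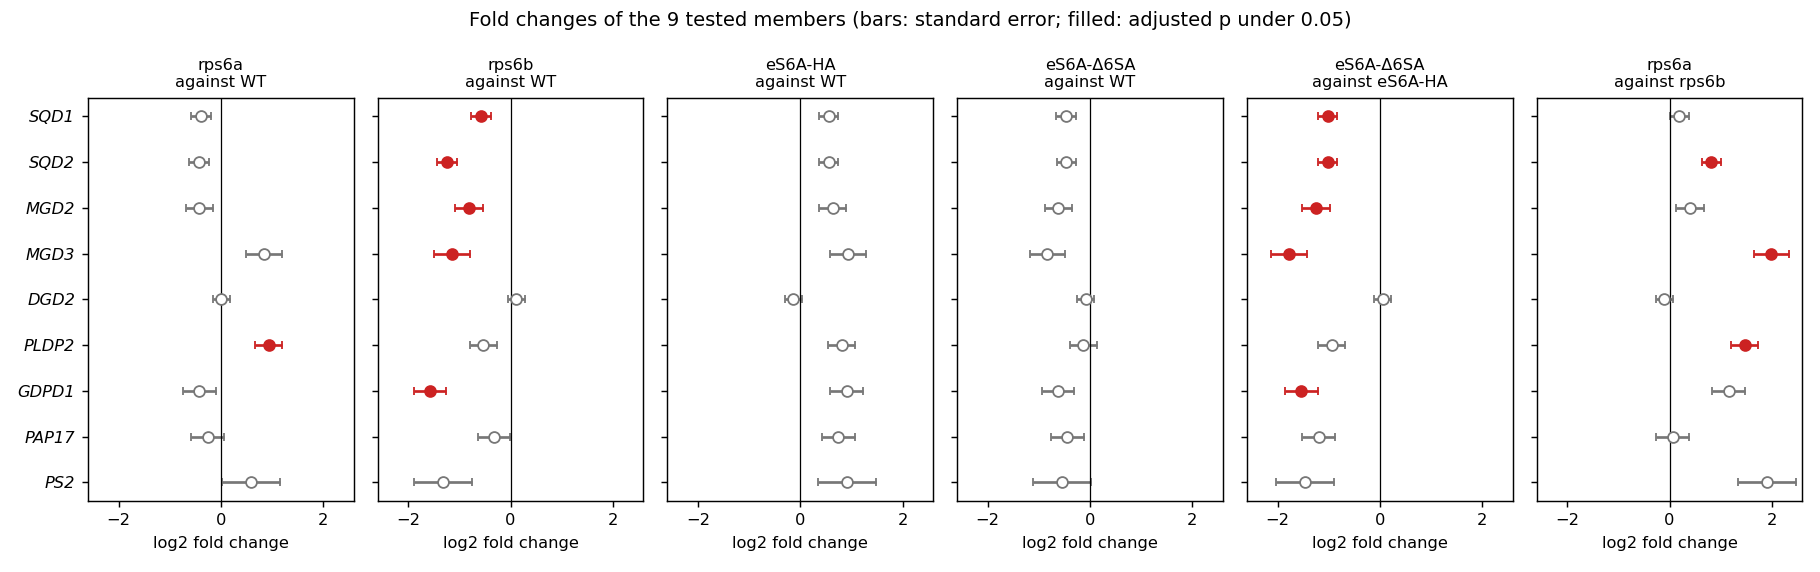
Log2 fold change (horizontal axes) of the 9 tested members in the 6 comparisons, with bars of 1 standard error; filled red points passed the limma test at an adjusted p under 0.05 and open points did not. The filled points number 1, 5, 0, 0, 5 and 3 from left to right, and DGD2 stays near 0 in every panel. Panels that share a group share its libraries.

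The enzymes that serve the same lipids in the chloroplast were lower in both single mutants. DGD1, the main digalactolipid synthase, had 750.1 ± 60.6 normalized counts in WT, 486 ± 42.9 in rps6a and 520.4 ± 27.9 in rps6b, and fell, with log2 differences of -0.63 and -0.53 (limma adjusted p 9.85e-07 and 1.66e-05). UGP3, which supplies UDP-glucose for sulfolipid, had 1038 ± 149 in WT, 735 ± 38.7 in rps6a and 533 ± 17.8 in rps6b, and fell (-0.49 and -0.95, limma adjusted p 2.88e-04 and 4.45e-09). MGD1 had 263 ± 6.81 in WT, 217 ± 3.0 in rps6a and 203 ± 12.5 in rps6b, and fell (-0.28 and -0.37, limma adjusted p 0.0320 and 0.00337). With spike-in scaling, under which the median of all genes in rps6a moved up by 0.35, DGD1, UGP3 and MGD1 in rps6a had log2 differences of -0.27, -0.13 and 0.080 and were not called. MGD1 in rps6a also lost its call when WT 1, WT 2 or any rps6a library was left out (limma adjusted p 0.0657 to 0.0920).

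**Figure D5:**
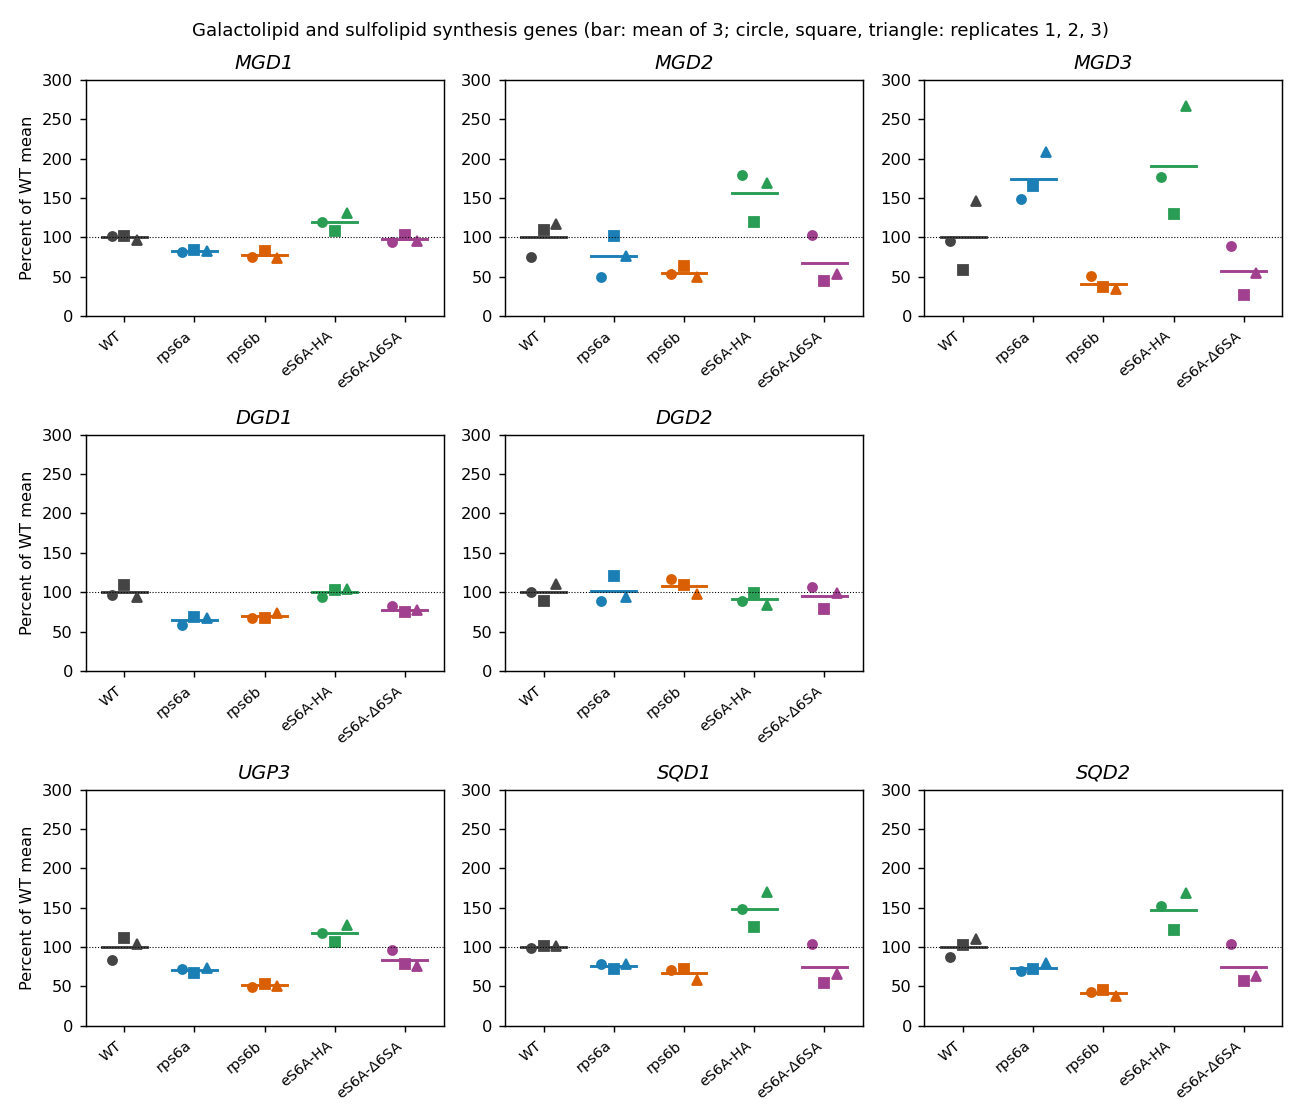
Galactolipid and sulfolipid synthesis genes as a percent of each gene's WT mean (vertical axes, linear, from 0) in each library, with chloroplast-route genes MGD1, DGD1 and UGP3 in the left column and members to the right; bars are group means of 3, and circle, square and triangle are replicates 1, 2 and 3. In rps6a MGD1 sits at 82.3% and MGD3 at 174% of WT, and in eS6A-Δ6SA the spread is wide for MGD2, MGD3, SQD1 and SQD2 and narrow for MGD1 and DGD1.

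DGD1 was also lower in the eS6A-Δ6SA line, at 584 ± 31.6 normalized counts, than in WT and than in eS6A-HA (750.3 ± 42.3), with log2 differences of -0.36 and -0.36 (limma adjusted p 0.0128 and 0.0129). The log2 difference of UGP3 was -0.50 in eS6A-Δ6SA against eS6A-HA (limma adjusted p 0.00179) and 0.46 in rps6a against rps6b (limma adjusted p 0.00363). The DGD1 and UGP3 calls against eS6A-HA, and that of DGD1 against WT, were lost with spike-in scaling (limma adjusted p 0.519, 0.185 and 0.466). DGD1 against WT was also lost without WT 2, eS6A-Δ6SA 2 or eS6A-Δ6SA 3 (0.0612 to 0.134), and DGD1 against eS6A-HA without eS6A-HA 2, eS6A-HA 3, eS6A-Δ6SA 2 or eS6A-Δ6SA 3 (0.0621 to 0.0836).

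The list of other lipid remodelling genes held 17, of which 16 were in the table and 15 were tested. In rps6a against WT, 1 rose and 3 fell, where 21.2% of all genes were called in either direction. The riser was GDPD5, a relative of GDPD1 (0.94, limma adjusted p 1.53e-04). In rps6b against WT, 1 rose and 5 fell, where 23.3% of all genes were called in either direction. The riser was NPC6, a relative of NPC4 (0.44, limma adjusted p 6.34e-04), and GDPD4 fell (-0.77, limma adjusted p 4.61e-05), while PAH2, a phosphatidate phosphatase named after its values were seen, fell (-0.35), with a limma adjusted p of 0.0414. That call was lost without WT 2, WT 3, rps6b 1 or rps6b 2 (0.0651 to 0.231), and with upper quartile or spike-in scaling, no filter, DESeq2 or the 2 groups alone (0.0519 to 0.0932). In eS6A-HA against WT none was called by limma, edgeR or DESeq2, and 4 were higher at an unadjusted p under 0.05, beside 997 of all 16335 genes. NPC6 was higher in eS6A-Δ6SA than in WT by 0.34 (limma adjusted p 0.0400), a call lost without any 1 of WT 1, WT 2, WT 3, eS6A-Δ6SA 1 or eS6A-Δ6SA 2 (0.0728 to 0.207), and with spike-in scaling, no filter, DESeq2 or the 2 groups alone (0.0521 to 0.0966). The median log2 difference of the list was -0.16 in rps6a, -0.25 in rps6b and 0.24 in eS6A-HA, beside -0.26, -0.81 and 0.74 for the members tested and -0.0058, -0.0063 and 0.0010 for all genes. The median of the members was -0.47 in eS6A-Δ6SA against WT, -1.19 in eS6A-Δ6SA against eS6A-HA and 0.82 in rps6a against rps6b, beside 0.0025, -0.00099 and 0.00013 for all genes.

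The close relatives of the members were compared with them by level. PLDP1, the paralog of PLDP2, had 160 ± 19.4 normalized counts in WT and 86.2% to 102% of that mean in the other groups, and was not called in any comparison. GDPD2, the paralog of GDPD1, averaged 96.2% of its WT mean in rps6a, 49.6% in rps6b, 165% in the eS6A-HA line and 73.4% in the eS6A-Δ6SA line, without a call in any comparison. PECP1, a phosphatase of phosphocholine and phosphoethanolamine related to PS2, had 41.2 ± 14.8 in WT, 53.3 ± 10.4 in rps6a and 14.9 ± 2.54 in rps6b, and averaged 139% of WT in the eS6A-HA line and 77.7% in the eS6A-Δ6SA line. Its rps6b libraries lay below WT (log2 difference -1.36, SE 0.59, limma adjusted p 0.132), as those of PS2 did. NPC5 was not in the table.

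Of 28 other purple acid phosphatases listed, 23 were in the table and 17 were tested. In rps6a against WT 3 rose and 3 fell, in rps6b 1 rose and 4 fell, in eS6A-Δ6SA against WT 1 fell, and in rps6a against rps6b 1 was higher. Over all genes, 21.2%, 23.3%, 2.57% and 2.92% were called in either direction in these comparisons, in that order. PAP10, a root-surface phosphatase, had 176 ± 20.9 normalized counts in WT and rose in rps6a to 262 ± 27.4 (log2 difference 0.57, limma adjusted p 1.68e-04) and in rps6b to 223 ± 7.57 (0.34, limma adjusted p 0.0204, and 0.165 without WT replicate 2, 0.0710 without rps6b replicate 3 and 0.207 with spike-in scaling). PAP1 rose in rps6a (1.22, limma adjusted p 0.00698). PAP14 differed between rps6a and rps6b by 3.05 (SE 0.35, limma adjusted p 9.75e-07), with 17.4 ± 4.02 in WT, 37.3 ± 10.5 in rps6a and 3.58 ± 1.13 in rps6b. It fell in rps6b against WT (-2.01, limma adjusted p 4.35e-05) and rose in rps6a against WT (1.04, limma adjusted p 0.0294), the rise being lost without WT 1, WT 2, rps6a 2 or rps6a 3 (0.0610 to 0.126). In rps6b PAP4 fell (-0.75, limma adjusted p 5.17e-04), and so did PAP18 (-0.46, limma adjusted p 0.00910, and 0.0700 without WT replicate 1). PAP3 was lower than WT in rps6a, rps6b and eS6A-Δ6SA (-0.78, -0.73 and -0.44, limma adjusted p 1.69e-07, 4.81e-07 and 0.00603), the last call being lost with spike-in scaling (-0.32, limma adjusted p 0.325). PAP12 had 136 ± 14.4 in WT and 185 ± 39.8 in eS6A-HA, PAP26, a major intracellular acid phosphatase, stayed between 92.6% and 104% of its WT mean of 830.1 ± 55.6, and neither was called in any comparison. In eS6A-HA against WT and in eS6A-Δ6SA against eS6A-HA limma, edgeR and DESeq2 called 0 of the 17, with 3 at an unadjusted p under 0.05 in each. At that threshold 997 of all 16335 genes were higher and 829 lower in the former comparison, and 1216 and 1333 in the latter.

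The regulators of the group differed among themselves. PHR1 had 219 ± 32.2 normalized counts in WT, 219 ± 26.9 in rps6a, 252 ± 3.95 in rps6b, 267 ± 20.4 in the eS6A-HA line and 261 ± 24.7 in the eS6A-Δ6SA line, and its relative PHL1 had group means of 42.9 to 53.6, with no call in any comparison for either gene. SPX1, a phosphate sensor that restrains PHR1 and is itself induced by phosphate starvation, had 187 ± 13.3 in WT, 181 ± 6.47 in rps6a, 105 ± 3.83 in rps6b, 356 ± 117 in the eS6A-HA line and 129 ± 73.2 in the eS6A-Δ6SA line. In eS6A-Δ6SA against eS6A-HA the log2 difference of SPX1 was -1.54 (SE 0.35, limma adjusted p 0.0444), a call lost without eS6A-HA 1, eS6A-HA 3, eS6A-Δ6SA 2 or eS6A-Δ6SA 3 (0.0891 to 0.142), and with spike-in scaling, no filter or the 2 groups alone (0.0534 to 0.294). Of 12 tested genes of phosphate signalling and transport, 6 were lower in that comparison and 0 higher, beside 1.4% of all genes called lower. In rps6a against WT 2 of them rose and 1 fell, beside 21.2% of all genes called in either direction. In rps6b against WT limma and DESeq2 called 0 and edgeR 3, with 4 lower at an unadjusted p under 0.05, beside 2784 of all 16335 genes.

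Genes with profiles like those of the members were sought by Pearson's r of log2(normalized count + 1) over the 15 libraries, given as a description, since libraries of a genotype are alike and share their normalization. Against the mean profile of the 9 tested members, the highest values were 0.963 for SPX1, 0.937 for PAP12, 0.927 for AT1G23110, 0.924 for PPCK1, a kinase of phosphoenolpyruvate carboxylase, and 0.899 for PECP1. They were followed by ABCG12, a wax transporter (0.895), G3Pp1, a glycerol 3-phosphate permease homolog (0.881), CEV1, a cellulose synthase (0.873), BAG3 (0.870) and the kinase CIPK17 (0.865). Among members, the closest pairs were SQD2 with GDPD1 (0.959), MGD3 with PS2 (0.925) and SQD1 with SQD2 (0.917). DGD2 had r of -0.31 to -0.016 with the other 8. By single members, the gene most like SQD2 was UGP3 (0.959), the one most like PS2 was PECP1 (0.958), the one most like SQD1 was SPX1 (0.940), and the one most like PLDP2 was AK3, an aspartate kinase (0.933).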

How the data were processed

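The deposited table gives a normalized signal: the authors scaled the read counts of each library by 1 size factor, per the file headers. The submitters' processing notes name STAR 2.7.6a, featureCounts 2.0.0, DESeq2 1.26.0 and the build TAIR10. Per the labels' protocols, rRNA-depleted total RNA with ERCC spike-ins was sequenced in paired reads of 75 bases. The 77 spike-in rows (4.39% to 6.08% of reads) stayed out of all gene tests. Positive values were whole multiples of the value of 1 read within 0.01, so whole reads were recovered for 100% of values and used for edgeR and DESeq2 as alternatives. Replicate libraries differed by more than sampling noise (chi-square per degree of freedom 1.69 to 5.47).

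The test was limma 3.58.1 (R 4.3.3; trend and robust) on log2(value + 1), over 16335 genes with a mean of at least 10, with all 15 libraries in 1 fit, and two-sided p-values were Benjamini-Hochberg adjusted per comparison (6 comparisons). Alternatives were edgeR 4.0.16, DESeq2 1.42.0, other scalings, filters and pseudocounts, a replicate block, the 2 groups alone and each library left out. On simulated data for rps6a against WT (16335 genes, 200 changed 2-fold), limma recovered 84.5% with 6.63% of calls false. Of 21777 identifiers, 21565 matched RefSeq TAIR10.1, from which names, coordinates and sequences were taken.

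Members and gene lists were chosen with earlier results of these data known. The text names all members, up to 4 called genes per comparison of the lipid and acid phosphatase lists, set paralogs and regulators, and the genes of most similar profile. Replicate numbers are not known to pair libraries and were not a term in the fit reported.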

Additional observations from a re-analysis of the deposited data

Results flagged for a closer look

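For 3 members the single mutants differed from each other by a direct test, so that their effects against the same WT libraries were not alike. In rps6a against rps6b, the log2 difference of MGD3 was 1.99 (limma adjusted p 0.00114), with all 3 rps6a libraries above all 3 rps6b libraries. That of PLDP2 was 1.47 (limma adjusted p 0.00260), again with no overlap. That of SQD2 was 0.82 (limma adjusted p 0.0380), also with no overlap, although both mutants lay below WT for this gene. Against WT, SQD2 was not called in rps6a (limma adjusted p 0.138). The direct SQD2 call was lost without any 1 of the 6 libraries (limma adjusted p 0.0849 to 0.133) and with a replicate block (0.0614).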

How the results depend on the processing

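The number of members called depended on the setting in 5 of the 6 comparisons beyond leaving out a library. In rps6a against WT it was 1 in the fit reported, and 2 with spike-in scaling, edgeR or a replicate block, 0 with a minimum mean of 100, where fewer members were tested, and 6 with the 2 groups alone. In rps6b against WT it went from 5 to 3 with a minimum mean of 100, under which MGD2 and MGD3 were not tested. With the 2 groups alone, rps6b against WT gained PS2 (limma adjusted p 2.96e-04) and lost no call. In eS6A-HA against WT it went from 0 to 4 with the 2 groups alone. In eS6A-Δ6SA against eS6A-HA it went from 5 to 3 with a minimum mean of 100, where again MGD2 and MGD3 were not tested. There it also went to 3 with the 2 groups alone, to 6 with edgeR and to 7 with DESeq2. In rps6a against rps6b it went from 3 to 7 with spike-in scaling, 5 with DESeq2 and 5 with the 2 groups alone. Leaving out 1 library gave 0 to 2 calls in rps6a against WT, 2 to 5 in rps6b against WT, 0 to 0 in eS6A-HA against WT, 0 to 5 in eS6A-Δ6SA against WT, 1 to 7 in eS6A-Δ6SA against eS6A-HA and 2 to 3 in rps6a against rps6b. The cause of these shifts was not tested, except that fewer genes or libraries enter some fits by construction.

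The replicate numbers are not known to pair libraries. Over 30 pairs with the same number, deviations from group means correlated at -0.156 to 0.183, 2 pairs were over 0.1, and 8 of 15 libraries correlated best with their own number. With the replicate number as a block, MGD3 was also called in rps6a against WT (limma adjusted p 0.0287), and in rps6a against rps6b GDPD1 gained a call (0.0404) and SQD2 lost one (0.0614); the counts were then 2 and 3, and the block changed no other member's call.

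Spike-in scaling moved the median of all genes by 0.35 in rps6a against WT, -0.063 in rps6b, -0.093 in the eS6A-HA line and 0.12 in the eS6A-Δ6SA line, by 0.21 in eS6A-Δ6SA against eS6A-HA and by 0.41 in rps6a against rps6b. It turned the sign of PAP17 in rps6a against WT (0.10), of MGD1 in rps6a against WT (0.080), and of DGD2 in eS6A-Δ6SA against WT (0.036) and in rps6a against rps6b (0.31), and GDPD1 lost its call in eS6A-Δ6SA against eS6A-HA (limma adjusted p 0.0639). Upper quartile scaling lost SQD1 in rps6b against WT (0.0646). Of 570 member values under the other settings, 534 kept direction and side of the threshold, 27 gained a call, 6 lost one and 3 turned sign. Of 324 with 1 library left out, 273 kept both, 11 gained, 30 lost and 10 turned sign. The signs that turned were of DGD2 in rps6a against WT (-0.12 to 0.095), eS6A-Δ6SA against WT (-0.17 to 0.047) and eS6A-Δ6SA against eS6A-HA (-0.036 to 0.18), of PLDP2 (-0.49 to 0.063) and PS2 (-1.16 to 0.11) in eS6A-Δ6SA against WT, and of PAP17 in rps6a against rps6b (-0.11 to 0.28), none of them called. NPC4 had the fewest reads, 2 to 21 per library.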
